A study of Mus musculus with 8 samples.

Results

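Transcripts of 5 genes of meiotic entry and meiotic prophase, Stra8, Meioc, M1ap, Mei1 and Meiob, were followed in RNA recovered with the RNA-binding protein DAZL from fetal mouse gonads. They were chosen by their input signal, as the 5 genes with the largest excess of XX input over XY input among 10685 genes measured above background on all 4 input arrays, and 19693 genes were represented in all. Gonads of E14.5 embryos of the MCH strain were pooled in lots of 50 and lysed, and 5% of the cleared lysate was set aside as input. DAZL was pulled down from the lysate with an antibody (RNA immunoprecipitation, IP). Labelling with Cy3 started from 50 ng for an input and from 1 ng for an IP, and each sample went on its own 1-colour oligonucleotide array. The 4 groups, XX input, XX IP, XY input and XY IP, had 2 arrays each. All came from MCH embryos with no mutation or drug named in the labels. The arrays used here held no IP with a control antibody, so recovery is always relative to input.

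Female germ cells enter meiosis in the fetal ovary, whereas male germ cells of the same age stop dividing and delay meiosis until after birth. Retinoic acid turns on Stra8, a transcriptional regulator that drives the switch from mitosis to meiosis, and the synaptonemal complex and the recombination machinery are then built during prophase. DAZL is a germ cell RNA-binding protein that binds mRNAs and promotes their translation. Among the other genes, Meioc encodes a coiled-coil protein that works with YTHDC2 to keep germ cells in meiotic prophase. Mei1 is needed to make the double-strand breaks that start recombination, Meiob encodes a single-strand DNA-binding protein that acts on the broken ends, and M1ap encodes a meiosis I-associated protein known from spermatocytes.

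Each gene had 1 probe on the array, and all 5 passed the filter on dim probes, which kept 18263 probes for testing. The probes lie, on the mm8 genome, at chr6:34869383-34869442 for Stra8, chr11:102498050-102498109 for Meioc, chr6:82995687-82995746 for M1ap, chr15:81953962-81954021 for Mei1 and chr17:24567288-24567347 for Meiob. The files name Meioc as Gm1564, M1ap as D6Mm5e and Meiob as 4930528F23Rik. No annotation of that build was at hand, so the exon of each probe is not given. With 1 probe per gene, isoforms could not be told apart.

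The upstream sequence of 4 of the 5 genes, those with a matched RefSeq promoter (GRCm38.p6), is shown as the sequence context of genes that the rule grouped by their excess in XX input. The 250 bases before the annotated start were searched on both strands for 4 motifs. The motifs were CNCCTCAG, bound by STRA8 with its partner MEIOSIN, the retinoid receptor half-site AGGTCA, the E-box CACGTG and the E2F site TTTCCCGC. Capitals mark the matches, none of which overlapped another.
Stra8, chr6:34920698-34920947, plus strand: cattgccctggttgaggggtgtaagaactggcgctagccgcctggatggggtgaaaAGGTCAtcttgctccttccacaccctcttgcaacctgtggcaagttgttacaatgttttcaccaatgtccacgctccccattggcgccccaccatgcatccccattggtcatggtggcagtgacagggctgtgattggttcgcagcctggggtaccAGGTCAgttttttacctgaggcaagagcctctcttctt
Meioc, chr11:102665335-102665584, plus strand: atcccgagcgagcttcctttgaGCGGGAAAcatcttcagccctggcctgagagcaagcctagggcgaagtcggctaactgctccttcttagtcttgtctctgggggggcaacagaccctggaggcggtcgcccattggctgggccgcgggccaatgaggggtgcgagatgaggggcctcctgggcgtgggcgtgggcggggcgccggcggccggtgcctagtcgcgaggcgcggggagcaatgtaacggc
M1ap, chr6:82946672-82946921, plus strand: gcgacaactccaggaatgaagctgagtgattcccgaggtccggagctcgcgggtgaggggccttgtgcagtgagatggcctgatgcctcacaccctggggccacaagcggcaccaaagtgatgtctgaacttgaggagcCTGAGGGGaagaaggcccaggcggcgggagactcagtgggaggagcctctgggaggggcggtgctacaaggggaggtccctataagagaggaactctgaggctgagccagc
Mei1, chr15:82082226-82082475, plus strand: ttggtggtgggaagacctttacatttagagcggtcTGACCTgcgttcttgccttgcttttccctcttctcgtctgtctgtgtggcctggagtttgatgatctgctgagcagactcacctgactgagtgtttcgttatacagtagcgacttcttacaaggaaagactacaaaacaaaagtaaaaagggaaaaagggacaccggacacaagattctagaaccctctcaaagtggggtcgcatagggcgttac

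The Stra8 promoter held 2 copies of the retinoid receptor half-site, at 194 to 189 and at 38 to 33 bases before the start, and that of Mei1 held 1 at 215 to 210. This half-site was found in 14% of 32851 promoter windows of the same length. The Meioc promoter held 1 E2F site at 228 to 221 bases before the start, a motif present in 0.895% of the windows. The M1ap promoter held 1 copy of the STRA8 and MEIOSIN motif at 111 to 104 bases before the start, against 6.42% of the windows. The E-box, which 6.02% of the windows held, was in none of the 4 promoters. These matches describe letters only, and binding was not measured.

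The arrays differed in depth between input and IP. Probes well above background numbered 16743 to 20423 on the input arrays and 6083 to 9486 on the IP arrays. Each array was scaled to its 75th percentile, which stood at 77.4 to 173 scanner units in input and 6.83 to 13.1 in IP. The XX samples were on one slide and the XY samples on the other, and slide and sex can therefore not be told apart. The labels do not say whether the 2 arrays of a group came from separate lots, so the p-values measure the spread between these arrays, which may be technical. The sex labels matched the data: Xist was well above background on both XX input arrays and on neither XY input array, and Ddx3y, Eif2s3y and Kdm5d the other way round. In bulk gonads, fewer germ cells and less RNA per germ cell cannot be told apart.

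All 5 transcripts were abundant in XX input, where 86.3% to 98.9% of the tested probes were lower. In XY input, Stra8 and M1ap lay in the middle of the tested probes, with 41.2% to 54.8% of them lower, and Meioc, Mei1 and Meiob further down, with 11.1% to 27.3% lower. Because this difference chose the genes, it is given as a description without a test. Signals below are log2 values with the array's 75th percentile subtracted. Stra8 had 6.87 and 6.96 on the 2 XX input arrays and 0.28 and 0.72 on the 2 XY input arrays. Meioc had 3.29 and 3.47 in XX input and -2.16 and -2.01 in XY input. M1ap had 5.91 and 5.81 in XX input and -0.17 and -0.01 in XY input. In each of these genes the XX arrays lay far above the XY arrays. Mei1 had 3.73 and 3.74 in XX input and -1.84 and -1.44 in XY input, and Meiob had 4.54 and 4.57 against -1.07 and -1.42. The difference of the group means was 6.41 for Stra8, 5.95 for M1ap, 5.80 for Meiob, 5.47 for Meioc and 5.38 for Mei1, against a median of -0.0022 over all tested probes. The last gene taken, Mei1, was followed by Rhox9 with 4.90, Tnfrsf19 with 4.90, the meiotic cohesin gene Smc1b with 4.72, Xlr4b with 4.68 and Rhox6 with 4.63.

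**Figure D1:**
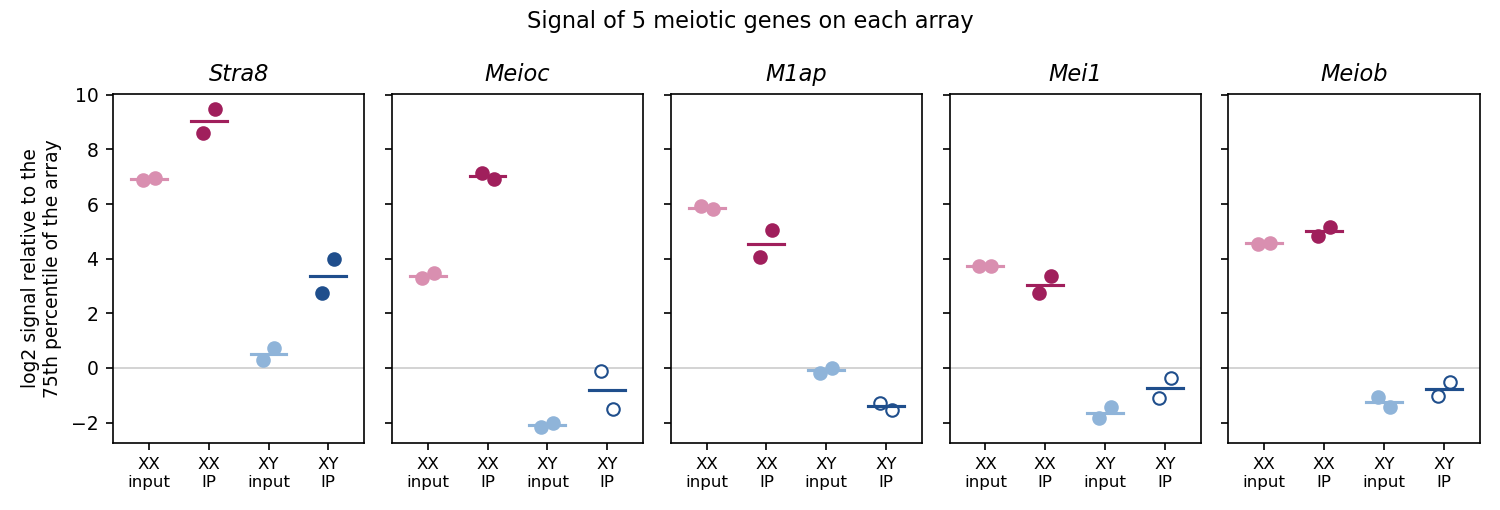
Log2 signal with the array's 75th percentile subtracted (y axis) for each gene in the 4 groups (x axis). Points are single arrays, lines are means of 2 arrays, and open points mark groups where the probe was well above background on neither array. XX points lie above XY points of the same fraction in every gene, and in XY IP only Stra8 is filled.

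The germ cell content of the 2 inputs was compared through markers. Ddx4, a helicase of all germ cells at this stage, had a mean of 4.96 in XX input and 5.15 in XY input, and Mael had 5.02 and 5.86. Summed over the 7 germ cell markers on the linear scale, the scaled signal was 106 to 117 on the XX input arrays and 187 to 218 on the XY input arrays. In the input, 3 of the 7, Dppa3, Pou5f1 and Tdrd1, were lower in XX at an adjusted p under the limit. The remaining 4, Ddx4, Mael, Dazl and Kit, summed to 100.2 to 110.1 on the XX and 108 to 117 on the XY input arrays. Dazl went the other way, with a mean of 5.34 in XX and 4.12 in XY at its brighter probe (1.22, adjusted p = 0.067, limma) and a difference of 1.54 at its other probe (adjusted p = 0.022). Germ cell markers thus differed in direction between the inputs. The 4 Sertoli cell markers summed to 1.19 to 1.37 in XX input and 42.9 to 45.9 in XY input, with Amh and Dhh at background on both XX arrays. The 3 fetal Leydig cell markers tested summed to 2.25 to 3.32 in XX input and 67.6 to 74.6 in XY input, and the 2 ovarian supporting cell markers tested, Fst and Wnt4, to 10.1 to 12.4 and 1.47 to 1.62. Endothelial markers summed to 6.56 to 7.96 in XX input and 5.09 to 5.80 in XY input, and erythroid markers to 38.5 to 44.6 and 43.8 to 53.7. The part of these cell types in the results was not tested.

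Whether the 5 transcripts were recovered with DAZL was asked in XX gonads first. The IP arrays played no role in choosing the genes, but the XX input arrays did, which favours a high input and so a lower IP minus input, and the p-values of this comparison are not independent of the choice. Of the 5, 2 rose in the XX IP over the XX input by the limits used, an adjusted p under 0.05 and at least 4-fold, and none fell. Of all 18263 probes tested, 14.1% were higher and 9.89% lower in the XX IP by the same limits, and 5 genes are too few to set a share against these.

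Meioc had 7.14 and 6.93 on the XX IP arrays, and both lay above both XX input arrays. The IP minus input difference was 3.65 ± 0.47 (log2, SE), which is 12.6-fold, with an adjusted p of 0.00018 (limma). This difference exceeded that of 97.8% of the tested probes. The call rested on the fold limit: with the arrays scaled to their 50th percentile, which moved the median of all tested probes to -1.92, Meioc stood at 1.64, and after normexp background correction with an offset of 50 it stood at 1.47.

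Stra8 had 8.60 and 9.46 on the XX IP arrays, again above both XX input arrays. The difference was 2.11 ± 0.49, or 4.33-fold, with an adjusted p of 0.0044 (limma), and 87% of the tested probes had a lower one. It lay close to the 4-fold limit and fell under it without XX IP replicate 2, at 1.68. It was 0.11 under the 50th percentile and -0.03 after normexp with an offset of 50, and it missed the limits under 8 of 22 alternatives, against 3 of 21 for Meioc.

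M1ap, Mei1 and Meiob were not called in the XX IP. M1ap had 4.06 and 5.04 there, below both input arrays, and its difference of -1.31 ± 0.43 (adjusted p = 0.024, limma) corresponded to a 2.48-fold lower level, short of the 4-fold limit. Mei1 had 2.73 and 3.35, also below both input arrays, with a difference of -0.70 ± 0.43 and a 95% interval of -1.63 to 0.24 (adjusted p = 0.20, limma). Meiob had 4.83 and 5.18, above both input arrays, with a difference of 0.45 ± 0.40 and an interval of -0.42 to 1.32 (adjusted p = 0.37, limma). Scaled to the 50th percentile, M1ap at -3.32 and Mei1 at -2.71 both passed the limits for a lower level, and Meiob turned to -1.56.

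The genes could also be compared with each other in IP minus input, in which any constant of an array cancels. In XX gonads the order was Meioc, Stra8, Meiob, Mei1 and M1ap. The difference of Meioc exceeded that of Stra8 by 1.54, with 0.96 to 2.12 over the 4 pairings of an IP with an input array. Stra8 exceeded Meiob by 1.67 (1.38 to 1.95), Meiob exceeded Mei1 by 1.15 (0.99 to 1.30), and Mei1 exceeded M1ap by 0.62 (0.39 to 0.84). The range left out 0 for every neighbouring pair. The order was the same under the 21 alternatives in which all 5 genes were tested, but many of these could not change it. Another scaling percentile cancels here. Changes of filter, variance model or fold limit, and leaving out an XY array, leave these differences as they are. From the first to the last the distance was 4.97 (4.24 to 5.70). Among transcripts that were all high in XX input, recovery with DAZL was unequal. These ranges are descriptions over 2 arrays a group.

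**Figure D2:**
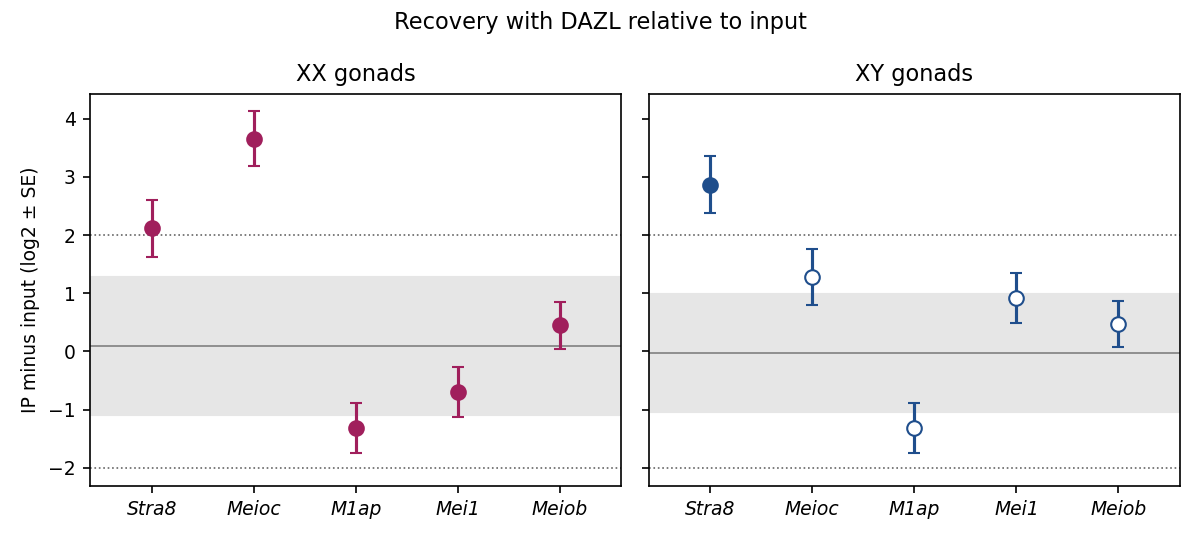
IP minus input (log2, y axis) for each gene (x axis) in XX and XY gonads, as the mean difference with its SE from limma. The grey band is the interquartile range of all tested probes and the line their median, dotted lines mark a 4-fold change, and open points mark probes well above background on neither IP array of that sex. Meioc at 3.65 and Stra8 at 2.11 lie above the dotted line in XX gonads, and only Stra8 at 2.86 does in XY gonads.

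In XY gonads Stra8 was the 1 gene of the 5 that passed the limits for a rise, and none passed for a fall. Of all probes tested, 10.2% were higher and 7.67% lower in the XY IP. Stra8 had 2.75 and 3.98 on the XY IP arrays, 45.9 and 208 scanner units, and both lay above both XY input arrays. The difference was 2.86 ± 0.49, or 7.28-fold, with an adjusted p of 0.0011 (limma). It was 2.25 without XY IP replicate 2 and 3.48 without XY IP replicate 1. The XY input values subtracted here also entered the choice of the genes, which favours low ones, so this p is not independent of the choice. After normexp with an offset of 50 it was 0.50 and under the 50th percentile 1.00, both short of the limit.

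The remaining 4 genes were well above background on both XY input arrays and on neither XY IP array, where they had 2.83 to 10.3 scanner units. Meioc had -0.11 and -1.51 there, M1ap -1.27 and -1.55, Mei1 -1.09 and -0.36, and Meiob -1.03 and -0.52. On the XY IP arrays, the dimmest probes well above background lay at 0.91 and 0.03, so these values are no levels and no fold is given. XY IP was then set at that level to give nominal upper bounds of IP minus input. On the log2 scale they were 0.56 for M1ap, 1.71 for Meiob, 2.11 for Mei1 and 2.55 for Meioc. A rise of 4-fold lay above the bound for M1ap and Meiob in this scaling, and rises up to these bounds could go unseen in all 4. The bounds are not strict, because probes above that level can still be at background. On XY IP replicate 2, where the level was 0.03, probes of Brme1 and Cyp11a1 had 0.08 and 0.33 and were not well above background.

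XX and XY gonads were then compared within the DAZL IP. The IP arrays did not choose the genes, but IP and input came from lysates of the same kind of gonad, so a higher XX IP was not independent of the choice by input, and the count is a description. All 5 genes were higher in the XX IP than in the XY IP at an adjusted p under 0.05, where 11.7% of all tested probes were higher and 8.75% lower. Stra8, measured above background on all 4 arrays, was 50.7-fold higher, a difference of 5.66 ± 0.49 (adjusted p = 2.6e-05, limma), which was 5.05 without XY IP replicate 1 and 6.28 without XY IP replicate 2. Meioc was at least 94.8-fold higher (adjusted p = 9.1e-06, limma), Meiob at least 23.2-fold (adjusted p = 1.3e-05), M1ap at least 16.9-fold (adjusted p = 1.4e-05) and Mei1 at least 5.95-fold (adjusted p = 0.00012). For these 4 the XY side was set at the dimmest probe well above background on each XY IP array or at the probe's own signal, whichever was higher. Such bounds, here and below, are nominal and hold for this background correction and scaling. The adjusted p-values belong to the fitted differences, which use the XY IP values at background, and the bounds themselves were not tested. In every gene both XX IP arrays lay above both XY IP arrays. Mei1 did not pass after normexp with an offset of 50 (0.96, adjusted p = 0.24, limma), with outlying local backgrounds replaced as well (0.98, adjusted p = 0.061), and with an offset of 1 (1.82, adjusted p = 0.088); over all alternatives for it the adjusted p was 5.0e-06 to 0.24. The other 4 passed under all alternatives in which they were tested, but the size of the fitted difference varied. It ran from 4.99 to 6.43 for Stra8 and from 4.16 to 8.54 for Meioc. For Meiob it ran from 2.39 to 6.06 and for M1ap from 2.25 to 6.96. The lowest values came with normexp and an offset of 50, for Stra8 with outlying local backgrounds replaced as well.

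The difference between the sexes in the IP was measured for Stra8 alone, the gene above background in XY IP. It had only a nominal lower bound for the others. For Stra8 it was 5.66 in the IP and 6.41 in the input, so that recovery in XX minus recovery in XY was -0.75 ± 0.70. It ran from -1.03 to 0.03 over the alternatives that kept all arrays, and from -1.37 (without XY IP replicate 1) to -0.13 (without XY IP replicate 2) when single arrays were left out. It holds the contrast that chose the genes and is not tested. For the other genes the IP difference had nominal lower bounds that hold only for this background correction and scaling. On the log2 scale they were 6.57 for Meioc, 4.54 for Meiob, 4.08 for M1ap and 2.57 for Mei1. Under normexp background correction the fitted IP differences lay below these bounds, at 4.16, 2.39, 2.25 and 0.96 in the same order. The input differences in the main processing were 5.47, 5.80, 5.95 and 5.38. For Meioc the bound puts recovery higher in XX by at least 1.10 under this background correction and scaling, a value that again holds the contrast used for the choice and is not tested. The fitted Meioc difference, 2.37, ran from 0.72 (normexp with outlying local backgrounds replaced) to 2.86 (quantile normalization), and from 1.67 without XY IP replicate 2 to 3.07 without XY IP replicate 1. Whether M1ap, Meiob and Mei1 differed more or less in the IP than in the input was therefore not measured. Of all tested probes, 2.18% were called higher and 1.12% lower in recovery in XX than in XY.

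**Figure D3:**
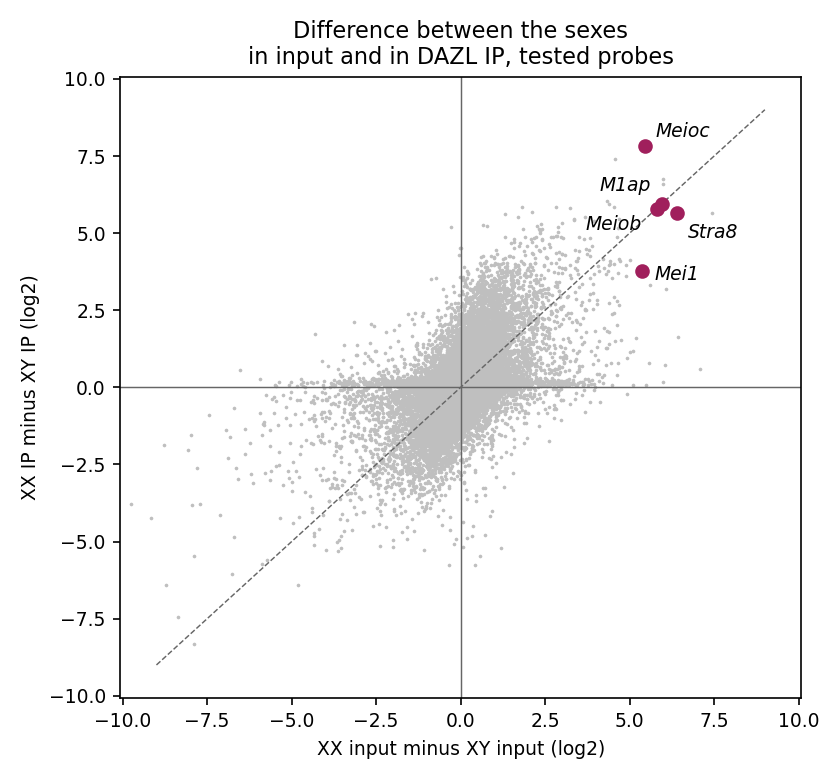
XX minus XY (log2) in the input (x axis) and in the DAZL IP (y axis) for the 18263 tested probes in grey and the 5 genes in colour; the dashed line marks equal differences. Stra8 lies at 6.41 and 5.66; for the other 4 genes XY IP is at background, so their height is a fitted value and not a measured difference.

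Over the 8 arrays, the 10 pairs of the 5 genes had Pearson correlations of 0.81 to 0.98. The rule took genes high in XX and low in XY input, which fixes much of this likeness, and the arrays form 4 groups of 2 and share their scaling, so these values describe the group pattern and carry no test. The 5 other genes closest to the mean standardized profile were Xlr4b, of an X-linked lymphocyte-regulated gene family, with r = 0.993, the elongation factor gene Eaf2 with 0.990, the RNA-editing enzyme gene Adarb1 with 0.989, Fhl4 with 0.986 and the chromatin remodeller gene Baz1a with 0.985. Xlr4b had 4.53 and 4.57 in XX input, 5.52 and 6.09 in XX IP, -0.29 and 0.03 in XY input, and -0.10 and 0.76 in XY IP.

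Other genes of meiosis were taken from a list of 53, of which 43 had a tested probe. In the input, 26 of 43 were higher in XX than in XY and 1, Cyp26b1, was lower, where 5.88% and 6.1% of all tested probes were. The 26 became 15 with normexp and an offset of 50, 12 with an offset of 1 and 14 without moderated variances. The median XX minus XY input difference was 2.66, against -0.0022 over all tested probes. Cyp26b1, which degrades retinoic acid and is a Sertoli cell gene at this stage, had a mean of -1.18 in XX input and 3.99 in XY input. In the IP, 28 of 43 were higher in XX and 2 lower, where 11.7% and 8.75% of all tested probes were. The median was 1.89 against 0.08 over all tested probes. Of the 28, 21 were well above background on both XX IP arrays, where 8.91% of all tested probes were both called and above background, and 16 were at background on both XY IP arrays. With normexp and an offset of 50 the 28 became 8, and under the 50th percentile 12. The 2 lower genes became 0 without XX IP replicate 1 or without XY IP replicate 2.

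Genes of the synaptonemal complex and chromosome axis were higher in the XX IP in 9 of 10 cases. The axis gene Sycp3 was 13.9-fold higher (3.80 ± 0.38, adjusted p = 5.8e-05, limma), and the central element genes Six6os1, Syce1, Syce2 and Tex12 differed by 4.09, 3.86, 3.69 and 2.25. Syce1 was well above background on 1 XY IP array only. Hormad1 was at least 7.07-fold higher, Hormad2 at least 3.11-fold, Syce3 at least 2.11-fold and Sycp1, of the transverse filament, at least 1.79-fold. Sycp2 (1.40) was not called, nor was a second probe of it (-1.64), which was well above background on 1 XY IP array only. Of the cohesin genes, Smc1b differed by 4.11 and Stag3 by 1.75, both called.

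Among break formation genes, Iho1 was at least 39.4-fold higher and Spo11, whose product cuts DNA, at least 3.79-fold, while Rec114 (0.41) was not called. A second Spo11 probe was not called (1.92, adjusted p = 0.056, limma) and was well above background on 1 XX IP array only. Of 5 genes that attach telomeres to the nuclear envelope, all were called higher: Terb2 at least 18.8-fold, Terb1 at least 2.98-fold, Spdya at least 1.90-fold, Majin at least 1.09-fold and Sun1 by 1.56 on the log2 scale. A second Spdya probe, above background on both XX IP arrays, was at least 3.95-fold higher than in XY IP (adjusted p = 0.00011 for the fitted difference, limma). It stood 2.44 above XX input (adjusted p = 0.0014, limma). Of 15 strand exchange and crossover genes, 4 were higher, among them Ccnb1ip1, Dmc1 and Brme1. Ccnb1ip1, a crossover regulator, differed by 3.04, while the meiotic recombinase gene Dmc1 was at least 1.30-fold and Brme1 at least 2.85-fold higher. Mnd1, well above background on 1 XY IP array only, was at least 1.77-fold lower in XX.

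Of 8 meiotic entry genes tested, 6 were higher in the XX IP and 1 lower. Rbm46, an RNA-binding protein gene, was at least 3.72-fold higher, the cyclin gene Ccnb3 at least 2.70-fold, the retinoic acid receptor gene Rarb at least 1.50-fold and Ythdc2, whose product partners MEIOC, at least 1.44-fold. The cohesin gene Rec8 differed by 1.89 and Dazl by 1.85, and the retinoid X receptor gene Rxra by -1.73 (adjusted p = 0.030, limma). Rec8 was well above background on 1 XY IP array only. A second Rec8 probe, at background on the IP arrays, was not called (1.05, adjusted p = 0.12, limma). A second Rxra probe, at background on the IP arrays, stood at -0.27. Ythdc2, Rarb, Sycp1, Syce3, Dmc1, Majin and the brighter probe of Spdya were well above background on 1 of 2 XX IP arrays only. Their XX IP means include an array at background, so the folds given for them are no firm bounds. The same holds for Mnd1 with its XY IP mean.

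**Figure D4:**
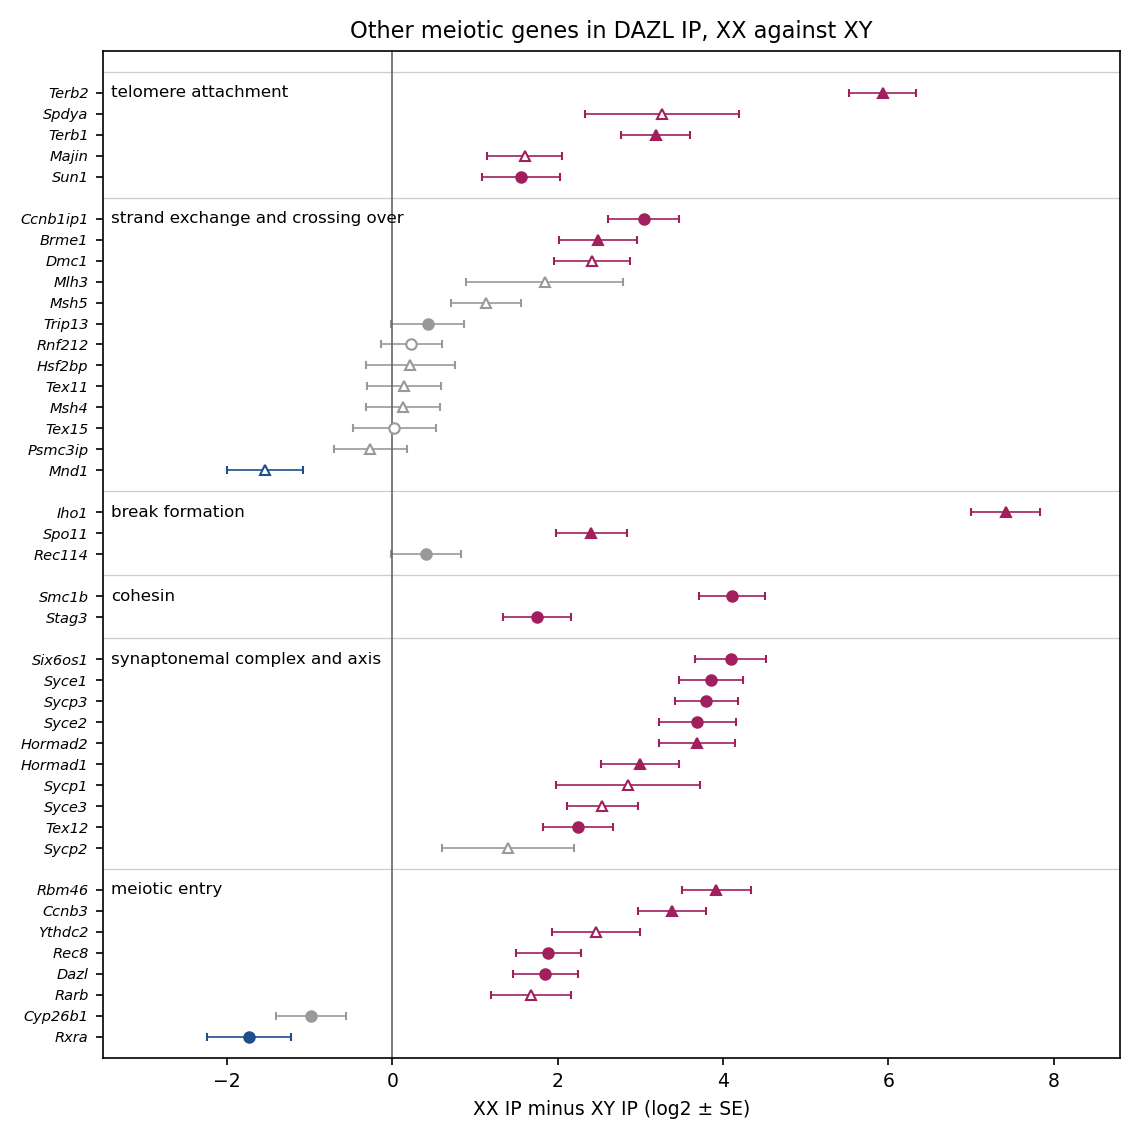
XX IP minus XY IP (log2 with SE from limma, x axis) for 41 of the 43 tested genes of meiosis (y axis), by group. Red points were called higher in XX, blue points lower and grey points neither; open points were not well above background on both IP arrays of the sex with the higher value. Triangles mark genes at background on both IP arrays of the sex with the lower value, so that their position is fitted against an unmeasured level; among the circles, Smc1b at 4.11 and Six6os1 at 4.09 lie to the right and Rxra at -1.73 to the left.

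Against input, 10 of the 43 were higher and 3 lower in the XX IP, where 14.1% and 9.89% of all tested probes were. The median was 0.67 against 0.09 over all tested probes. All 10 were well above background on both XX IP arrays, a class that held 8.21% of all tested probes. The 10 became 1 with normexp and an offset of 50 and 2 under the 50th percentile, and the 3 lower became 7 and 17. The largest rises were Ccnb1ip1 with 5.38, Rbm46 with 4.36 and Six6os1 with 3.91 at its brightest probe, and Dazl itself rose by 2.69 ± 0.39 (adjusted p = 0.00031, limma). The probes of Six6os1 disagreed, since its others stood at 5.06, 0.62 and -0.82, and neither 0.62 nor -0.82 passed the test (adjusted p = 0.43 and 0.24, limma). Syce2, Sycp3, Iho1, Cyp26b1, Tex12 and Terb2 made up the rest, between 2.47 and 3.90. None of the 3 lower genes, Psmc3ip and Sycp1 among them, was above background on both XX IP arrays. The value of Meioc, 3.65, lay within the range of these 10 and that of Stra8, 2.11, below it.

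In the XY IP, 14 of the 43 were higher than in input and 2, Psmc3ip among them, lower. By the same limits, 10.2% of all tested probes were higher and 7.67% lower. The 14 became 0 with each normexp setting and 1 under the 50th percentile, where the 2 lower became 16. Of the 14, 9 were at background on both XY IP arrays, so no fold is given for them. The dimmest probe well above background lay at -3.59 to -2.34 on the scaled input arrays and at 0.03 to 1.03 on the scaled IP arrays, so probes at background can sit higher in an IP. The other 5 were Ccnb1ip1 with 4.26, Tex12 with 3.51, Six6os1 with 3.22 at that probe, Sycp3 with 2.39 and Dazl with 2.06. They were well above background on all 4 XY arrays and were all among the 10 called in XX gonads. Of all tested probes, 6.05% were called higher in the XY IP and above background on both of its arrays.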

How the data were processed

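Values came from 8 single-colour Agilent arrays. The authors deposited scanner output whose processed spot intensity is already background-subtracted but not normalized between arrays; its headers name Feature Extraction 9.5.3.1, and the submitters' processing notes 9.5. They also hold mean and local background intensity and flags for spots well above background. The deposited table holds log2 values that the authors made by raising values under 1 to 1 and scaling to the 75th percentile; it was used as an alternative.

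Spots flagged as outliers were dropped, signals below 1 were raised to 1, log2 values of a probe's spots were averaged, and the 75th percentile of the array was subtracted. Of 41174 probes, 41101 had values on all arrays, and 18263 were tested, those well above background on all arrays of any group. Precision is set by the small number of arrays. limma 3.58.1 (R 4.3.3) was fitted to all 8 arrays with 1 mean per group (residual degrees of freedom 4, prior 7.84), two-sided, with Benjamini-Hochberg adjustment over all 18263 probes. An IP call needed an adjusted p under 0.05 and at least 4-fold, a call between the sexes the former only. Other meiotic genes were counted through the probe with the highest mean signal. All probes of the 5 genes were described. Of the other meiotic genes, those called between the IPs and the largest rises and falls against input measured above background were named, with the 5 genes next by input difference, the 5 closest profiles, the cell markers and Dazl; 2 genes of the list are counted but not reported singly here. The 5 genes and all lists were chosen with earlier results of these data known. Probes were named through their accession in the GRCm38.p6 gene table (23366), their listed symbol (6739) or a former symbol (2918), and 8151 stayed unnamed. The procedure was tested on simulated data. Alternatives covered background correction, scaling, filters, the deposited table, the variance model, the arrays fitted, a replicate block, the fold limit and leaving out each array.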

Additional observations from a re-analysis of the deposited data

Results flagged for a closer look

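Recovery with DAZL, IP minus input, was compared between XX and XY gonads. The 5 genes, which are not tested here, were looked at for opposite directions in the sexes, which Mei1 alone had, and the 43 other meiotic genes for a fitted difference past the test, which 6 had. Of these 7 genes, Cyp26b1 alone was measured above background on all 8 arrays. Mei1 was lower in the IP than in input for each numbered XX pair of arrays (-1.01 and -0.39) and higher for each numbered XY pair (0.75 and 1.09), a difference of -1.62 that was not tested. The XY IP arrays were at background for it, so the XY recovery has only a nominal upper bound of 2.11 and the direction of the difference is not settled. The test of the other 6 was limma, adjusted over all 18263 probes. Cyp26b1 had a recovery higher in XX by 4.19 (adjusted p = 0.0046), with an input of -1.18 in XX and 3.99 in XY. Iho1 had a fitted difference of 2.84 (adjusted p = 0.025), but XY IP was at background, and with XY IP set at the dimmest probe well above background the recovery was higher in XX by at least 0.72. Msh4 (-3.09), Msh5 (-3.87), Terb1 (-2.90) and Majin (-3.58) had a lower fitted recovery in XX, and all 4 were at background on all 4 XY arrays, so no XY recovery was measured and no difference is shown. Of all tested probes, 2.18% differed in the first direction and 1.12% in the other.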

How the results depend on the processing

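Of the 5 genes, 2 were enriched in the XX IP, and this became 0 with normexp (offset 50, with or without outlying local backgrounds replaced) and with scaling to the 50th percentile, and 1 with scaling to probes above background on all arrays, quantile normalization, only probes above background on all arrays (which kept 1 of the 5), no moderated variances, and normexp with an offset of 1, which was added after seeing the data. Leaving out 1 array gave 1 to 2, with 1 without XX IP replicate 2. The count of 0 depleted in XX became 1 with each normexp setting and without the fold minimum, and 2 at the 50th percentile. In XY the count of 1 enriched became 0 with each normexp setting and at the 50th percentile and 2 without the fold minimum, and that of 0 depleted became 1 at the 50th percentile, with quantile normalization and without the fold minimum. The count of 5 higher in the XX IP than the XY IP was 4 with each normexp setting, 1 where only 1 gene passed the filter on all arrays, and 5 to 5 without single arrays. The sign turned for Stra8 in XX with normexp (-0.028 with either background), for Meiob in XX with normexp (-1.51 with either background, -0.67 with an offset of 1) and the 50th percentile (-1.56), and in XY for Meioc (-0.59), Mei1 (-0.95) and Meiob (-1.40) at the 50th percentile and for Mei1 (-0.29) and Meiob (-0.29) with quantile normalization. The IP signal at the 75th percentile was 6.83 to 13.1 units, below the offset of 50. Calls were also lost with an offset of 1, and the part of the offset in these losses was not tested. The 50th percentile moved the median of IP minus input to -1.92 in XX and -1.90 in XY. Among the 43 other meiotic genes, the 10 enriched in XX became 1, 1, 6 and 2 (normexp, normexp with backgrounds replaced, offset of 1, 50th percentile), the 3 depleted became 7, 7, 7 and 17, and 0 on all-array probes, 1 without moderated variances and 9 without the fold minimum. The 14 enriched in XY became 0, 0, 0 and 1 in the same order, 4 with quantile normalization, 6 with a common floor, 5 on all-array probes and 5 with only calls above background on both IP arrays (added after seeing the data), and the 2 depleted became 0 with normexp and with an offset of 1, 16 at the 50th percentile, 0 on all-array probes, 1 without moderated variances and 4 without the fold minimum. The 28 higher in the XX IP became 8, 12, 10 and 12 in that order and 10 on all-array probes, and the 2 lower became 0, 0, 0 and 0, 0 with no filter, without moderated variances, with only the arrays compared and with a fold minimum, and 1 on all-array probes. In the input, the 26 higher became 15 with normexp, 12 with an offset of 1, 7 on all-array probes and 14 without moderated variances, and the 1 lower became 4 with only the arrays compared. Leaving out single arrays gave 10 to 12 and 2 to 4 in XX, 13 to 16 and 2 to 2 in XY, 24 to 27 and 0 to 3 between the IPs, and 22 to 28 and 1 to 1 between the inputs, higher and lower in each case; the 2 lower between the IPs became 1 without any 1 input array, 0 without XX IP replicate 1 or XY IP replicate 2 and 3 without XY IP replicate 1. Lone arrays were assumed to vary like the other groups. Same-numbered input and IP arrays deviated together with r = 0.031 in XX and 0.14 in XY over 4205 probes, and a replicate block changed no count (2 and 0 of the 5 genes in XX, 1 and 0 in XY, 5 and 0 between the IPs; 10, 3, 14, 2, 28, 2, 26 and 1 of the other genes). The deposited values also changed none by over 1.5 times. The remaining causes were not tested.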
